A study of Neurospora crassa with 10 samples.

Results

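Pairs of protein-coding genes on opposite strands that share transcribed bases were examined in the corrected Neurospora crassa gene annotation, nc14. A pair was taken where an exon record of a plus strand gene and an exon record of a minus strand gene of the same linkage group (LG, the Neurospora chromosome) had at least 1 base in common. NCU10889, NCU10893, NCU10894 and NCU10895 were left out because their annotated positions are doubtful. This gave 1087 pairs made of 2133 genes, 21.9% of the 9726 protein-coding genes considered (9730 with the 4 genes left out) and part of 9866 genes of all types on 7 LGs. The pairs were chosen by the annotated positions themselves, so their lengths and layouts are given as a description, with no test.

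The annotation comes from a study that used in situ Hi-C, which maps contacts between chromosome segments, in germinated conidia of the wild type strains N150 and N3752. Chromatin was cut with DpnII, with MseI or with both enzymes in 10 labelled datasets, with 8, 15 or 23 PCR cycles where the label states them. The annotation is 1 file for all datasets, so it has no value per library, no sequencing depth and no replicate error. Contact matrices, RNA reads and the genome sequence were not analysed here.

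Genes that overlap on opposite strands are transcribed into RNAs with complementary stretches. In Neurospora, double-stranded RNA feeds the RNA silencing pathway known as quelling, antisense RNA is known from the clock gene frq, and converging transcription is known to give rise to small RNAs made without Dicer and to DNA methylation at some loci. A base of an overlap can lie in the untranslated region (UTR) of each messenger RNA or in the coding sequence (CDS) of one of them. An overlap drawn in an annotation shows where the transcript models lie, and not that both RNAs are made in the same nucleus.

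Most pairs met at their 3′ ends. Tail-to-tail pairs, in which the 3′ end of each gene lies in the other, numbered 935 of the 1087 (86.0%). Head-to-head pairs, in which the 5′ ends overlap, numbered 83 (7.64%), and nested pairs, in which the whole of the shorter gene lies within the span of the longer one, numbered 69 (6.35%). The pairs shared 467629 bases, of which the tail-to-tail pairs held 78.0%, the nested pairs 17.1% and the head-to-head pairs 4.9%.

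The overlap had a median of 167 bp over all pairs. It was 155 bp for tail-to-tail pairs (quartiles 75 and 428 bp, longest 3347 bp) and 131 bp for head-to-head pairs (quartiles 44 and 258 bp, longest 2935 bp). Nested pairs shared a median of 1005 bp, with 288 bp in the shortest case and 7828 bp in the longest. Of all pairs, 727 (66.9%) shared at least 100 bp and 170 (15.6%) at least 1000 bp. The lengths of tail-to-tail overlaps did not fall off evenly. There were 227 with 100 to 199 bp, 142 with 200 to 399 bp and 79 with 400 to 799 bp, and then 116 with 800 to 1599 bp, so the counts fell and rose again on a log scale.

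**Figure D1:**
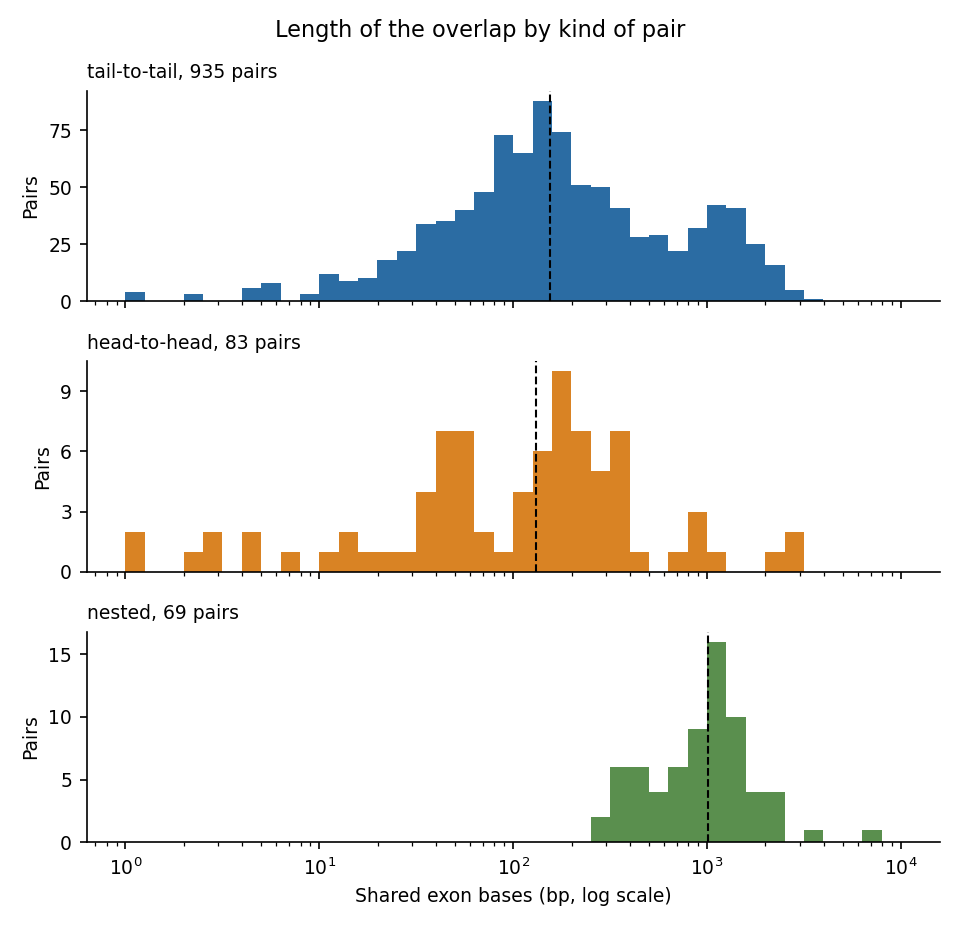
Histograms of the shared exon bases per pair (bp, log scale) for the 935 tail-to-tail, 83 head-to-head and 69 nested pairs, with the number of pairs on the vertical axis and the median as a dashed line. The medians lie at 155, 131 and 1005 bp, and the tail-to-tail panel shows a further rise near 1000 bp.

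The tail-to-tail pairs were split at 1000 bp to describe the longer group. UTR alone met UTR over at most 681 bp in tail-to-tail pairs and no base was CDS in both, so an overlap of 1000 bp needs a long 3′ UTR and must cover CDS, and the contrast in 3′ UTR length and in CDS covered follows from the split. In the 130 pairs with at least 1000 bp shared, the longer 3′ UTR of the pair had a median of 1602 bp and the shorter one 265 bp. In the 805 pairs under 1000 bp, the medians were 462 bp and 230 bp. In the long pairs, one gene thus had a long 3′ UTR, and the 3′ UTR of its partner was close to the 280 bp median of all protein-coding genes. The distance between the coding ends had a median of 380.5 bp in the long pairs and 505 bp in the others. The 130 long pairs held 55.6% of the bases that tail-to-tail pairs shared, and each of them covered CDS, as did 255 (31.7%) of the 805 shorter pairs. All of the CDS of one gene lay under its partner in 61 of the long pairs and in 4 of the others.

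Next, the shared bases were sorted by whether they were UTR or CDS in each gene, with the stop codon outside the CDS, as the records have it. Of the 467629 shared bases, 176936 (37.8%) were UTR in both genes, 290687 (62.2%) were UTR in one gene and CDS in the other, and 6 (0.00128%) were CDS in both. By pairs the picture was different, since short overlaps were mostly UTR. In 576 pairs (53.0%) only UTR met UTR, in 441 (40.6%) the CDS of one gene lay under UTR of the other, and in 67 (6.16%) the CDS of each gene lay under UTR of the other. Overlaps of UTR alone had a median of 93 bp and reached 965 bp, while those that touched CDS had a median of 540 bp.

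The share of UTR-only pairs differed by kind. It was 58.8% (550 pairs) of the tail-to-tail pairs, 31.3% (26) of the head-to-head pairs and 0 of the 69 nested pairs. In 48 of the 83 head-to-head and 70 of the 935 tail-to-tail pairs, 1 facing end had no annotated UTR. Such an end starts in coding sequence or a stop codon, so these pairs can hardly be UTR-only. The shares without them were not compared. In a nested pair the inner CDS lies within the outer span by definition. Outer introns held all of it in 0 pairs, so the 0 for nested pairs follows from the layout. Among tail-to-tail pairs, 37.9% of shared bases lay in the 3′ UTR of both genes, 58.5% in the 3′ UTR of one and the coding region of the other, and 3.37% in the 3′ UTR of one and the 5′ UTR of the other, which means that in 67 of these pairs a 3′ UTR ran past the whole CDS of its partner. Among head-to-head pairs, 27.7% of shared bases were 5′ UTR in both genes and 53.5% were 5′ UTR against coding sequence. Nested pairs mostly set the 3′ UTR of the outer or inner gene against coding sequence (58.3%), with 23.1% in 5′ UTR against coding sequence.

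**Figure D2:**
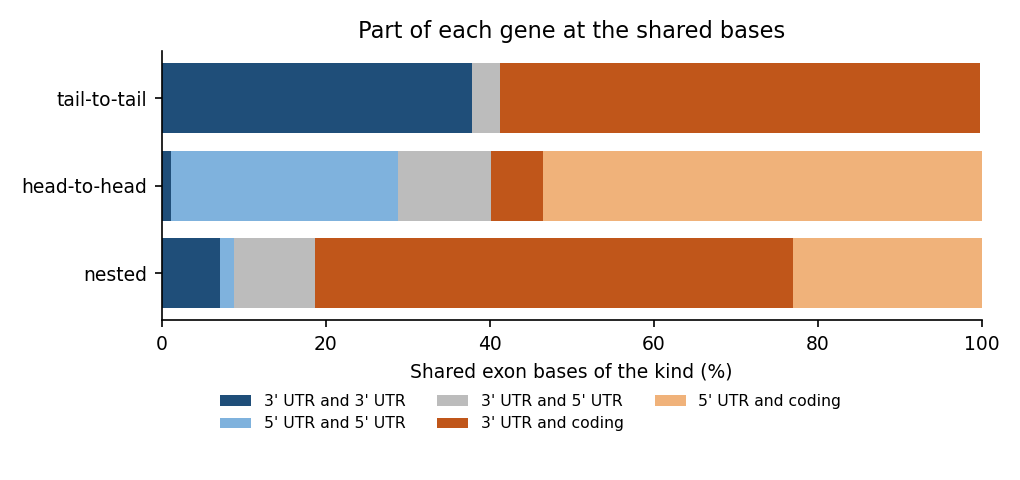
Stacked bars of the share of shared exon bases (%) by the part of each gene they fall in, for tail-to-tail, head-to-head and nested pairs; here the stop codon counts as coding, and parts under 0.3% are not drawn. The bar of 3′ UTR against coding reaches 58.5% in tail-to-tail and 58.3% in nested pairs, and the bar of 5′ UTR against coding 53.5% in head-to-head pairs.

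In 129 pairs all of a CDS lay under the partner (65 tail-to-tail, 4 head-to-head and 60 nested), and in 244 at least 50% of a CDS did. Nearly all of this coding overlap was against UTR. Only 3 pairs had bases that were CDS in both genes, and each had 2 such bases. NCU09971 and NCU09970 on LG I were head-to-head with 271 shared bp, and 269 of these were CDS of NCU09970 alone. NCU00179 was nested in NCU00180 on LG III and shared 381 bp, of which 376 were CDS of NCU00179 against 5′ UTR. NCU09651 and NCU16719 on LG IV were head-to-head and shared 2 bp in all, from 71005 to 71006, and neither had a 5′ UTR. Counting stop codons as CDS gave the same 3 pairs and the same 2 bases each. None of these 6 genes carries a symbol in the table used.

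Tail-to-tail pairs were examined by how far each transcript ran. Neither gene end passed the stop codon of its partner in 548 of the 935 pairs, 1 end did in 327, and both did in 60. The 447 ends that passed did so by a median of 305 bp and at most 2545 bp. The coding ends of these pairs were 28 to 3793 bp apart with a median of 490 bp. Of the 1800 3′ UTRs annotated in tail-to-tail pairs, a median of 49.8% of the length was shared with the partner, and 329 (18.3%) were shared over their whole length. In 70 tail-to-tail pairs one of the facing ends had no UTR.

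The longest tail-to-tail overlap was 3347 bp, between NCU08689 and NCU08688 on LG IV (4091898 to 4095378). It covered 2542 bp of the NCU08689 CDS and 456 bp of the NCU08688 CDS. Second was pro-3, a gene of proline synthesis, with mcl-1 on LG V. Its 3′ UTR of 3340 bp ran over the whole 2502 bp CDS of mcl-1, and the pair shared 2970 bp. NCU09354 and NCU09355 shared 2903 bp, NCU09999 and NCU09998 2839 bp, and NCU09218 and NCU09219 2652 bp. In each of these 3 pairs one gene had a 3′ UTR of 3134, 3006 or 2822 bp, and the partner's 3′ UTR was 600, 474 or 385 bp. These pairs again joined one long and one shorter 3′ UTR. At the other end, 4 tail-to-tail pairs shared a single base, among them pod-4 with NCU02621.

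Other long tail-to-tail overlaps involved genes of known function. NCU02554 shared 2145 bp with arp-4, a nuclear actin-related protein, whose 3′ UTR of 2454 bp covered 1993 bp (39.8%) of the NCU02554 CDS. The gene cen-T, named for a kinetochore protein, lay with 95.7% of its CDS under the 1911 bp 3′ UTR of NCU02162. Likewise, 67.8% of the CDS of gh2-1, a family 2 glycoside hydrolase, lay under the 3′ UTR of NCU00891. Here the known gene was covered, and in other pairs it did the covering. The 3′ UTR of met-6, which encodes folylpolyglutamate synthetase, had 1916 bp and covered 94.2% of the CDS of NCU00893. The 3′ UTR of cys-3, the bZIP activator of sulfur genes, had 2108 bp and covered all 657 bp of the CDS of NCU03535. The sirtuin gene nst-5 and NCU00204 covered each other, with 1236 bp (100%) of the nst-5 CDS and 382 bp (59.5%) of the NCU00204 CDS in the overlap of 1767 bp. The gene oxa-2, for a protein that helps insert proteins into the mitochondrial inner membrane, had its whole CDS of 1323 bp under the 3′ UTR of NCU06777.

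Head-to-head pairs were less regular. One of the facing 5′ ends had no annotated UTR in 48 of the 83 pairs. Neither gene start passed the partner's start codon in 26 pairs, 1 did in 53 and both did in 4. The 61 starts that passed did so by a median of 292 bp. Longest was the pair NCU05340 and NCU05338 on LG II (1366988 to 1369922), where the 3026 bp 5′ UTR of NCU05338, which has a CDS of only 312 bp, covered the whole 1131 bp CDS of NCU05340. NCU04226 and NCU04225 shared 2385 bp, with the whole CDS of NCU04225 (675 bp) under the 2682 bp 5′ UTR of NCU04226, itself with a CDS of 318 bp. NCU16848, with a 5′ UTR of 4206 bp and a CDS of 564 bp, shared 981 bp with NCU07316. A long 5′ UTR before a short CDS was thus found in 3 of the 5 longest head-to-head pairs. The choice by overlap length favors long 5′ UTRs, so this describes these pairs only. In the pair of NCU09969 and NCU09968, 1190 bp of the NCU09969 CDS lay under the 5′ UTR of its partner. Only 1 of the 2 NCU09968 transcripts overlapped NCU09969.

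The remaining long head-to-head pair had a layout of its own. NCU07127 and NCU07126 on LG VI (overlap 57481 to 60475) shared 2902 bp, and each had its whole CDS (699 and 741 bp) under UTR of the other. By gene span they were head-to-head, but the coding sequences faced each other with their stop codons, since each 5′ UTR reached into the partner's 3′ UTR. The start codons were in the order of a tail-to-tail pair, which gives a distance of -1788 bp between the facing coding starts, the lowest of the 83 pairs. NCU16819 with NCU04403 and NCU03602 with NCU03601 were the head-to-head pairs with the shortest overlap, 1 bp.

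**Figure D3:**
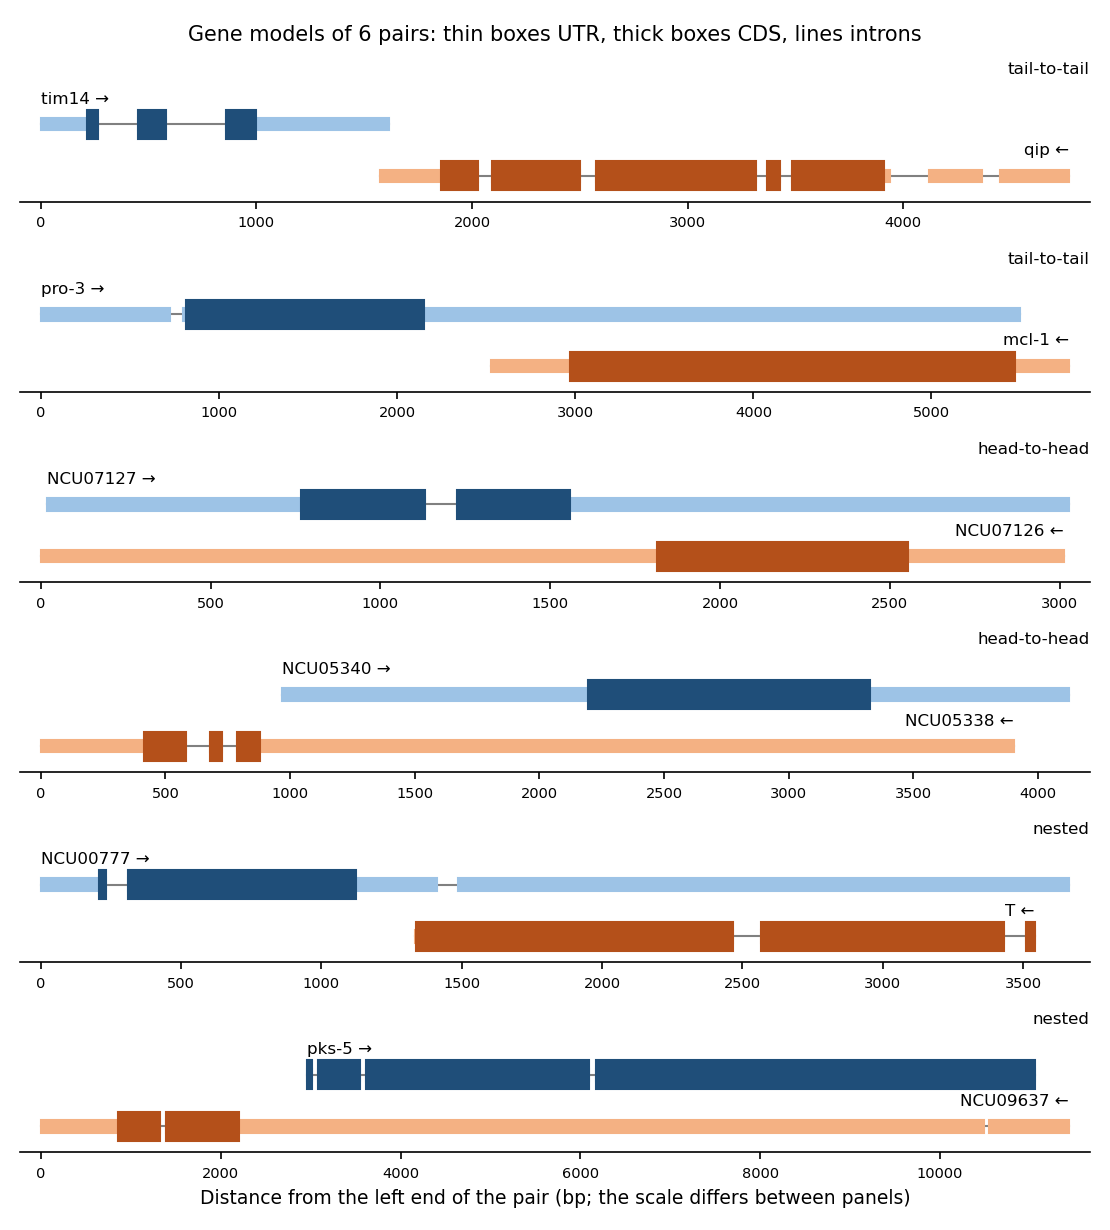
Gene models of 6 pairs drawn to scale, with the distance from the left end of the pair in bp on each horizontal axis (scales differ), plus strand genes above, minus strand genes below, thin boxes for UTR, thick boxes for CDS and lines for introns. The overlap is 42 bp of 3′ UTR in tim14 and qip, and covers the whole mcl-1 CDS of 2502 bp in the pair with pro-3, both CDS in NCU07127 and NCU07126, the 1131 bp NCU05340 CDS, and nearly all of T and pks-5.

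Nested genes lay almost wholly in UTR of the outer gene. The inner gene was on the plus strand in 33 pairs and on the minus strand in 36. Inner genes were 303 to 8089 bp long, with a median of 1073 bp, and outer genes 1890 to 11436 bp, with a median of 3665 bp. Of the bases spanned by inner genes, 68.1% were in the 3′ UTR of the outer gene, 28.0% in its 5′ UTR, 2.09% in its coding sequence and 1.74% in its introns. The inner gene lay mostly in the outer 3′ UTR in 47 pairs and mostly in the outer 5′ UTR in 22, and mostly in an intron or in coding sequence in 0. Genes on opposite strands whose spans overlapped without a shared exon base formed 1 further pair, NCU09827 and NCU09828 on LG V, with a span overlap of 433 bp. Nesting inside an intron, which needs no shared exon base, was therefore nearly absent from these gene models.

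The longest nested pair, and the longest overlap of all, was pks-5 within NCU09637 on LG IV (11075 to 19163). The gene pks-5 encodes a polyketide synthase, a large enzyme of secondary metabolism, and 7825 bp (99.3%) of its CDS lay under the 5′ UTR of NCU09637. That 5′ UTR was annotated with 9173 bp before a CDS of 1290 bp. Next were pod-1 in NCU07954 with 3311 shared bp and NCU08612 in rtg2 with 2502 bp. In yeast, Rtg2 acts in signaling from mitochondria to the nucleus. NCU00695 in NCU00696 shared 2270 bp. The gene inv, which encodes invertase, lay in the 2353 bp 3′ UTR of NCU04264 and shared 2123 bp. T, the tyrosinase gene, shared 1958 bp with NCU00777, and 96.4% of its CDS lay under the 2467 bp 3′ UTR of that gene. T itself had no annotated UTR. The nested pair with the fewest shared bases was NCU10770 in the 1100 bp 5′ UTR of cdt-1, a cellodextrin transporter, with 288 bp.

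Inner genes had short models. Their CDS had a median of 750 bp, against 1266 bp over all protein-coding genes, and 33 of the 69 (47.8%) had a single exon, against 18.6% of all. A 3′ UTR was annotated for 32 of them (46.4%), against 80.1% of all genes. Of the inner genes, 23 (33.3%) had a locus number above NCU10000, against 9.78% of all protein-coding genes. Outer genes had a median 3′ UTR of 1388 bp, against 280 bp over all genes, with genes without an annotated 3′ UTR counted as 0 bp. The inner gene was by definition the shorter one and had to fit within its partner, which favors short models. The choice of pairs by overlap also favors long outer UTRs. The values of inner and outer genes therefore describe the pairs and do not test them.

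Set against all neighbors, convergent genes overlapped far more often than divergent ones. Consecutive protein-coding genes by start position were called convergent where the plus strand gene came first and divergent where the minus strand gene came first. Of 2680 convergent neighbors, 965 shared exon bases (36.0%), against 116 of 2682 divergent neighbors (4.33%). Of 4357 neighbors on the same strand, 48 did (1.1%). All but 6 of the 1087 pairs were neighbors in this sense. The shares on opposite strands include nested pairs, which have no facing ends. Without nested pairs, 929 convergent neighbors overlapped and 1714 did not. For divergent neighbors the counts were 83 and 2566. Neighbors that did not overlap had a median gap of 614 bp where convergent and 817 bp where divergent. Where both facing ends had an annotated UTR, the shares were 46.8% of convergent and 2.47% of divergent neighbors, so the gap between the orders was wider there.

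**Figure D4:**
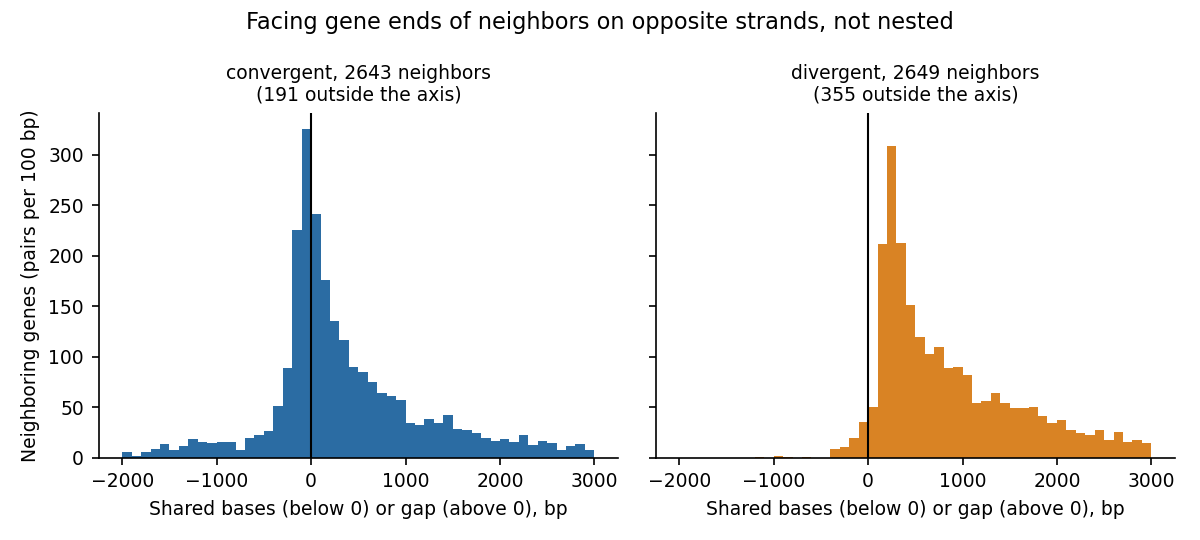
Histograms of the distance between facing gene ends (bp) for convergent and divergent neighbors that are not nested, with shared exon bases below 0 and gaps above 0, in 100 bp bins. Convergent neighbors peak just below 0 on the overlapping side, and divergent neighbors peak above 0, with few below it.

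The limit of 1 shared base lay in a dense part of this distribution. Just inside it were 6 pairs with 1 shared base (pod-4 with NCU02621, NCU09489 with NCU11088, NCU07886 with NCU07887 and NCU01361 with NCU01362 tail-to-tail, and the head-to-head pairs named above). Just outside were 4 convergent neighbors with a gap of 0 bp, among them NCU02493 with NCU02494, NCU07972 with NCU07971 and NCU08027 with NCU08028. Divergent neighbors just outside were NCU02028 with NCU02027 at a gap of 0 bp and NCU06196 with NCU06197 and NCU16686 with NCU08974 at 1 bp. Of the convergent neighbors, 325 shared 1 to 100 bases and 244 had a gap of 0 to 100 bp. Of the divergent ones, 35 and 50 did.

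Whether neighbors overlap depends on the distance between their coding ends and on the length of the UTRs, introns included, that face each other. Among convergent neighbors that were not nested, overlapping ones had a median of 491 bp between stop codons and 799 bp of summed facing UTR, and those without overlap 1285 bp and 532 bp. Among divergent neighbors, the values were 659 bp and 943 bp with overlap, against 1539 bp and 594 bp without. The orders were then compared at like coding distance. Head-to-head pairs whose coding ends crossed were in no range. These were NCU09971 with NCU09970 and NCU09651 with NCU16719 (-2 bp each), and NCU07127 with NCU07126 (-1788 bp). At 0 to 249 bp, 77.6% of 174 convergent and 75% of 12 divergent neighbors overlapped. At 250 to 499 bp it was 67.0% of 503 against 19.2% of 104, and at 500 to 999 bp 47.3% of 771 against 4.89% of 634. At 1000 to 1999 bp it was 12.9% of 691 against 1.69% of 949. The convergent share was thus above the divergent one in each of the 3 ranges between 250 and 1999 bp. It was close to the divergent one at 0 to 249 bp, where only 12 divergent neighbors fell. The summed facing UTR had a median of 381.5 bp for convergent and 318.5 bp for divergent neighbors at 0 to 249 bp. It was 487 against 253 bp at 250 to 499 bp, and 661 against 458.5 bp at 500 to 999 bp. The medians were closer at 1000 to 1999 bp (807 against 730 bp), and from 2000 bp on the convergent one was the lower (740.5 against 821 bp).

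**Figure D5:**
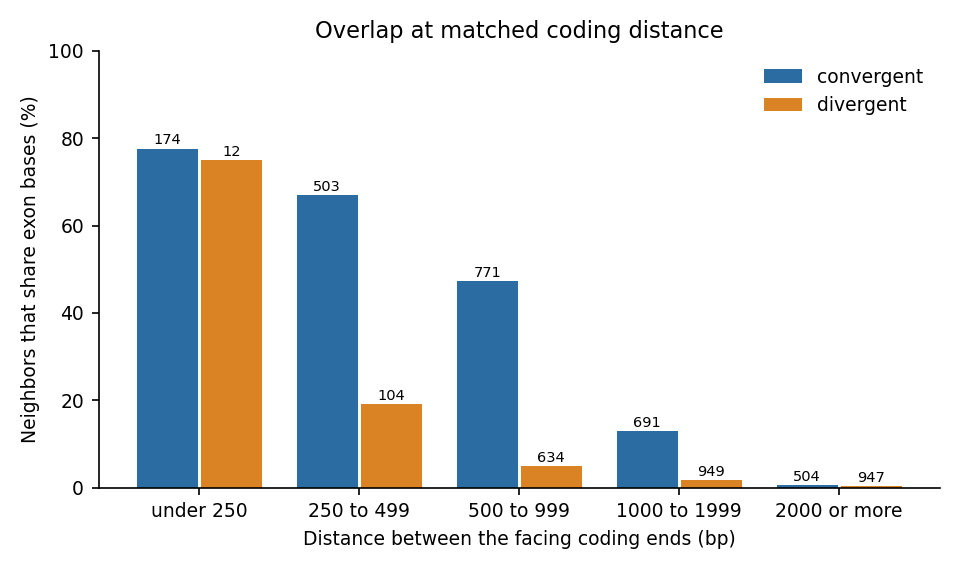
Bars of the share of neighbors that share exon bases (%) by the distance between their facing coding ends (bp), convergent left of divergent, with the number of neighbors above each bar. From 500 to 999 bp the bars stand at 47.3% and 4.89%, and from 2000 bp on both are under 1%. The lowest range holds distances of 0 to 249 bp, and head-to-head pairs whose coding ends crossed are in no bar.

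The pairs were spread over all 7 LGs. Genes in pairs made up 24.2% of the genes of LG I and 24.1% of LG V, the highest shares, and 19.0% of LG VI, the lowest. Convergent neighbors overlapped in 32.0% (LG VI) to 38.7% (LG I) of cases, and divergent neighbors in 2.59% (LG III) to 5.92% (LG V). In the outer 300 kb at each end of the LGs, 74 of 262 convergent neighbors overlapped (28.2%), against 891 of 2418 elsewhere (36.8%). The divergent shares were 5.62% in the outer 300 kb and 4.18% elsewhere.

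Genes in pairs had longer UTRs by median than the other protein-coding genes, as the choice by overlap favors. These medians count a gene without an annotated UTR as 0 bp. The median 3′ UTR was 341 bp, against 262 bp in the other 7593 genes, and the median 5′ UTR 273 bp against 223 bp. A 3′ UTR was annotated for 92.7% against 76.6%, and a 5′ UTR for 91.5% against 75.1%. The lower medians of the other genes thus include more absent UTRs, and lengths among annotated UTRs alone were not compared. The CDS was shorter, with a median of 1152 bp against 1308 bp, while whole genes were of like length (2141 bp and 2125 bp). More than 1 transcript was annotated for 11.1% of genes in pairs against 8.72% of the others. In 858 pairs each gene had 1 transcript, so the overlap could not vary. Among the 229 pairs with more than 1 combination of transcripts, the overlap was missing from some combinations in 44. In 929 pairs the shared bases formed 1 block, and introns split the rest into up to 6.

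Most genes had a single partner. Of the 2133 genes, 2092 were in 1 pair, 41 in 2 pairs and 0 in more. In 26 of the 41 genes one overlap was tail-to-tail and the other head-to-head. Overlaps linked 33 chains of 3 genes and 4 chains of 4. The chain NCU02565, NCU02566, NCU02567 and NCU02568 on LG I alternated strands and overlapped by 125 bp tail-to-tail, 652 bp head-to-head and 104 bp tail-to-tail. NCU00865 to NCU00862 on LG I had the same order of kinds with 196, 57 and 1182 bp. So did the LG V chain of NCU06711, pca-6, a proteasome subunit gene, NCU06713 and NCU06714, with 94, 43 and 1085 bp. In the LG V chain of NCU07185, NCU07184, NCU07182 and NCU07183, the last gene was nested, and the overlaps were 54, 153 and 855 bp.

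By summed overlap, the genes with 2 partners were led by NCU09637, which shared 7828 bp with pks-5 and 265 bp with NCU09636. The next was NCU00799 on LG I (1516 and 1692 bp). After it came ace-8, which held NCU06074 in its 3′ UTR (1460 bp) and met NCU06076 head-to-head (965 bp). NCU05511 shared 1711 and 313 bp. The fifth was hH2Az, which encodes the histone variant H2A.Z. Its CDS has 429 bp, its transcript held NCU05346 within it (1458 bp shared) and its 3′ end met NCU05345 over 166 bp. Thus 4 of these 5 genes joined a nested and a tail-to-tail overlap, and ace-8 a nested and a head-to-head one. Ranking by summed overlap favors nested pairs, whose overlaps were the longest by median. Of all 41 genes with 2 partners, 14 joined a nested and a tail-to-tail overlap and 1 a nested and a head-to-head one.

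Genes of pathways that involve antisense RNA or silent chromatin were then looked up. Of 9 genes of RNA silencing found under the symbols searched, 1 was in a pair (11.1%, against 21.9% of all protein-coding genes). This was qip, whose product is the exonuclease that removes the passenger strand of small RNA duplexes in quelling. It met tim14, a subunit of the mitochondrial import motor, tail-to-tail on LG III (2528710 to 2528751) over 42 bp, all UTR in both. The genes for the RNA-dependent RNA polymerases qde-1 and sad-1, the Argonautes qde-2 and sms-2, the helicase qde-3, the Dicers dcl-1 and dcl-2, and sad-2 were in no pair.

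Of 12 clock and light genes, 2 were in pairs (16.7%). The gene fwd-1, for the F-box protein that directs FRQ to degradation, shared 224 bp of UTR with NCU04541 on LG VII (1508970 to 1509193). The gene al-3, for geranylgeranyl pyrophosphate synthase of carotenoid synthesis, shared 32 bp of UTR with NCU01426 on LG V. The clock gene frq was in no pair, and non-coding antisense RNAs fell outside the rule. Of 11 silent chromatin genes found, 2 were in pairs (18.2%). The gene dim-7, for the protein that brings the H3K9 methyltransferase DIM-5 to heterochromatin, shared 690 bp with NCU04151 on LG V (5395222 to 5395911). Its 1200 bp 3′ UTR covered 491 bp (58.7%) of the NCU04151 CDS. The histone deacetylase gene hda-1 shared 540 bp with NCU01526 on LG II, and 353 bp of these were hda-1 CDS, 15.8% of that CDS. All 5 genes met their partners tail-to-tail. With 9 to 12 genes per list, these shares are close to or below the 21.9% of all genes, and nothing is read from them about the lists.

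Pairs in which both genes carried a symbol numbered 17. Those described here were picked after their values were seen. The gene pro-1, for a proline synthesis enzyme, lay with 81.4% of its CDS under the 3′ UTR of the histone acetyltransferase gene hat-1 (1134 bp shared). The dynactin gene ro-2 met crp-15, a ribosomal protein gene, over 1091 bp, of which 852 bp were ro-2 CDS. In the quinic acid cluster of LG VII, the permease gene qa-Y and the quinate dehydrogenase gene qa-3 overlapped tail-to-tail by 347 bp, and 260 bp of these were qa-3 CDS. The pair of arg-12, for ornithine carbamoyltransferase, and ilv-4 shared 206 bp, all UTR in both. In all, 10 of the 17 overlaps were UTR alone, with 38 to 206 bp, and the shortest of them was that of cyt-19, for a mitochondrial RNA helicase, with pco-1.

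Other pairs of that group were also tail-to-tail. The chitinase family gene gh18-5 lay with 60.6% of its CDS under the 1300 bp 3′ UTR of ubi::crp-6, which encodes a ubiquitin fused to a ribosomal protein, and the pair shared 1130 bp. The genes po and msh1, a homolog of mitochondrial MutS, shared 824 bp, of which 633 bp were msh1 CDS. The overlap of eat-6 with eat-5 had 275 bp, and only 10 bp of it were CDS. It involved only 1 of the 2 eat-5 transcripts. Several more of the UTR-only overlaps are given next, and the roles of their genes were not compared. A proteasome subunit gene, rpn-7, met ala over 72 bp, and gfa1, for the enzyme that makes glucosamine 6-phosphate, met pcb-7 over 69 bp. The trehalase gene tre-1 and ngf-1, for the GCN5 histone acetyltransferase, shared 78 bp. The peroxisome gene pex10 met bem46 over 64 bp, and nuo11.6, for a subunit of complex I, met ilv-6 over 131 bp.

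Further genes with a symbol on one side only lay on either side of such overlaps, and these too were picked after their values were seen. In the 6 pairs described first, the gene with the symbol had the long 3′ UTR. Other such pairs, among them cox-4 with NCU05688, are not described. The tryptophan synthase gene trp-3 had a 3′ UTR of 1554 bp over 88.4% of the CDS of NCU16588. The 3′ UTR of ad-8, for adenylosuccinate synthase, had 2049 bp and covered 67.0% of the NCU09788 CDS. That of spe-3, for spermidine synthase, had 1332 bp and covered 89.0% of the NCU06726 CDS. The 3′ UTR of tim17, a subunit of the mitochondrial inner membrane translocase, had 1552 bp beside a CDS of 465 bp and covered 81.5% of the NCU05624 CDS. The kinase gene mak-1 had a 3′ UTR of 1710 bp over 43.6% of the NCU09843 CDS, and arg-3, for a carbamoyl phosphate synthetase subunit, one of 1281 bp over 63.0% of the NCU02678 CDS. The 3′ UTR of the partner in these 6 pairs had 138 to 429 bp. In other pairs the gene with the symbol was the one covered. The whole CDS of gch-1 (939 bp) lay under the 1680 bp 3′ UTR of NCU07773, and the whole CDS of amt (1191 bp) under the 1879 bp 3′ UTR of NCU07175.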

How the data were processed

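The authors deposited 1 gene annotation of nc14 with 81158 records. Its deposited values are first and last bases in bp (unit: other), counted from 1, with no normalization. The sources used here do not state how gene models were moved to nc14. The labels name Bowtie2 2.3 and SAMtools in the submitters' processing notes, for libraries not used here. Exon records of all transcripts of a gene were merged. A base was CDS where any transcript had a CDS record there, and UTR in other exon bases. Nested, tail-to-tail and head-to-head followed gene spans. Symbols (for 257 of the 2133 genes in pairs), types and neighbor order were looked up in RefSeq's NC12 table, from which no position was taken. Python 3.11.15 with numpy 2.4.6, pandas 2.3.3, scipy 1.17.1 and matplotlib 3.10.9 was used, and the code was tested on simulated annotations.

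The 10 samples entered no comparison, and 0 columns of per-sample values were found. No test was run, because the positions chose the pairs. Intervals used for alternatives were 95% Wilson intervals. Members and lists were chosen with earlier results of these data known. Named by rule were pairs with CDS in both genes, the 5 longest and the shortest pairs of each kind, the neighbors just outside the limit (up to 3 per order), genes with most partners and the longest chains, up to 12 genes with a symbol and a known function by overlap (amt, un-25, gch-1 and syn-1 were passed over because their function was not held as sure), the 5 pairs with most CDS under UTR, and the members of 3 symbol lists. The symbols eed and suz12 were not matched, and sms-3 and dcl-1 matched the same gene.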

Additional observations from a re-analysis of the deposited data

How the results depend on the processing

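No paired analysis was possible because no file used has values by sample. Each of the 14 results was recomputed under alternatives, which gave 98 values. Of these, 69 lay within 1.5 times the count or median, or within the 95% Wilson interval of the share, and 29 did not. Without LG I and LG V, which the correction changed, fewer genes were left, and the pairs numbered 603 (523 tail-to-tail, 42 head-to-head, 38 nested) with 1185 genes. With at least 100 shared bases there were 610 tail-to-tail and 48 head-to-head pairs, medians of 286 and 223.5 bp, and overlap in 24.0% of convergent and 3.02% of divergent neighbors. With gene spans in place of exons, the head-to-head median was 198 bp. With a gene called nested at 90% of its span, nested pairs numbered 126. With both facing ends carrying UTR, 46.8% of convergent and 2.47% of divergent neighbors overlapped.

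The share of bases that were UTR in both genes and the share that were UTR in one and CDS in the other had narrow intervals, since bases were counted. They were 37.7% and 62.3% with the lowest-numbered transcript, 37.1% and 62.9% without LG I and LG V, 37.6% and 61.9% with the 4 doubtful genes, 35.8% and 64.2% with at least 100 shared bases, 37.5% and 62.5% with stop codons as CDS, and 38.0% and 62.0% with UTR taken first. Bases of 1 overlap are not independent, so these intervals are too narrow. With the 4 genes kept, 7 pairs had CDS in both genes and 0.402% of shared bases were CDS in both. The annotation gives no error for a transcript end, and whether long UTR models are single transcripts was not tested.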

Other observations

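The 4 genes of doubtful position would have added 4 pairs, with CDS in both genes in each. NCU10895 shared 711 bp with NCU00846 (544 bp CDS in both) and 1079 bp with NCU00845 (830 bp). NCU10893 shared 291 bp with NCU16491 (284 bp) and 260 bp with NCU16492 (225 bp). Each of these 4 values lies far above the 2 bp of CDS in both found in 3 of the other 1087 pairs.

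Genes on the same strand also shared exon bases in 48 pairs. The overlap had a median of 121 bp and at most 505 bp, and in 0 of them was a base CDS in both genes. On opposite strands the median was 167 bp and the longest 7828 bp.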
